A study of Homo sapiens with 8 samples.

Results

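The urokinase plasminogen activation system was followed here through 6 genes, PLAU, PLAT, PLAUR, SERPINE2, ANXA2 and S100A10. They were chosen as a named list by gene symbol, with no measured value in the rule, although earlier results of these data were known. All 6 were found among the 13771 genes of the expression table. RNA-seq was done on MCF10A, an immortal but not tumor-forming human mammary epithelial line, and on DCIS.COM, a xenograft-derived line related to it that models ductal carcinoma in situ (DCIS, the pre-invasive stage of breast cancer). Both lines had been stably transduced with the lentiviral vector pCDH, either empty or carrying the long noncoding RNA HOTAIR, and selected with 10 µg/ml puromycin. The 4 groups (MCF10A pCDH-empty, MCF10A pCDH-HOTAIR, DCIS.COM pCDH-empty and DCIS.COM pCDH-HOTAIR) had 2 libraries each, 8 in all. Both lines grew in DMEM/F-12 with 5% horse serum, but only the MCF10A medium also contained epidermal growth factor, hydrocortisone, insulin and cholera toxin, so cell line and medium cannot be told apart. The labels do not say that the 2 libraries of a group came from separate transductions or cultures, and p-values therefore measure the spread between libraries, which may be technical.

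Plasminogen is a circulating zymogen that becomes the protease plasmin when urokinase (PLAU) or tissue-type plasminogen activator (PLAT) cleaves it. The urokinase receptor (PLAUR) holds urokinase at the cell surface, serpins such as SERPINE2 (protease nexin 1) block the activators, and the heterotetramer of annexin A2 (ANXA2) and its light chain S100A10 docks plasminogen and tissue-type activator on the membrane. Plasmin degrades fibrin and matrix and releases latent growth factors, and the urokinase system is known in breast cancer for its part in matrix breakdown and invasion.

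On GRCh37, PLAU lies on the plus strand at chr10:75668935-75677254 and 4 others lie on minus strands: PLAUR at chr19:44150247-44174699, SERPINE2 at chr2:224839762-224904035, ANXA2 at chr15:60639333-60695082 and S100A10 at chr1:151955391-151966335. PLAU and SERPINE2 carried the largest differences between the lines, and the stretches upstream of a RefSeq start of each are shown with the letters of the GC box (GGGCGG on either strand, bound by SP1-family factors) in capitals. The PLAU stretch is chr10:75670640-75670861, from -250 to -29 relative to the start, and the SERPINE2 stretch is chr2:224903522-224903607, read on the minus strand from -250 to -165. Both are 5′ to 3′, were taken from RefSeq promoter windows (GRCh38.p14) that match GRCh37 letter for letter at 1 place, and were limited to bases outside the exons of the gene.
PLAU: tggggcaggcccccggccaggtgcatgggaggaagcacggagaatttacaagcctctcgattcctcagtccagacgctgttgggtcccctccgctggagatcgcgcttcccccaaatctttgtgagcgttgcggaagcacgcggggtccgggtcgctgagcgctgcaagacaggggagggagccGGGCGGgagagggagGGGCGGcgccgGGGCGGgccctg
SERPINE2: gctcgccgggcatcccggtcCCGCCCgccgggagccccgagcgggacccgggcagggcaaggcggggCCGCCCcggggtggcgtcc
PLAU held 3 GC boxes here, the nearest at -40 to -35, and SERPINE2 held 2, at -230 to -225 and -183 to -178. The same letters stood in 42.6% of the 34788 promoter windows of 250 bases, so that a GC box set neither gene apart. The letters TGACTCA, bound by AP-1 (FOS and JUN proteins), were less common, with 4.21% of windows, and occurred in the windows of PLAUR at -186 to -180 (chr19:44174490-44174518) and ANXA2 at -127 to -121 (chr15:60690295-60690323). Both are printed on the minus strand with the AP-1 letters, which read as their reverse complement there, in capitals. Unlike the stretches above, these were not limited to bases outside exons. The whole PLAUR window lies in annotated exons of PLAUR. The longest part of the ANXA2 window outside exons of ANXA2, from -250 to -172, does not hold the match.
PLAUR: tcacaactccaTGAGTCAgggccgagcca
ANXA2: gcgggccggggTGAGTCAcccctgacttg
No TGACTCA was found in the windows of PLAU, SERPINE2 or S100A10, which says only that these letters are not in those windows, and PLAT was not searched. A match is a description of the letters, not a binding site.

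The libraries held 19306864 to 34884841 reads, the MCF10A pCDH-HOTAIR pair being the least deep. The targeted RNA moved as labelled: HOTAIR had 45 and 40 reads in MCF10A pCDH-empty, 4614 and 4827 in MCF10A pCDH-HOTAIR, 119 and 140 in DCIS.COM pCDH-empty, and 7166 and 6385 in DCIS.COM pCDH-HOTAIR. All 6 epithelial markers checked (EPCAM, CDH1, KRT5, KRT14, KRT17 and TP63) were measured, with a summed level of 9386 to 10661 CPM (the read count relative to library size) in MCF10A and 1885 to 2185 CPM in DCIS.COM. The sum is made up mainly of keratins, and the markers did not move together: with the empty vector KRT5, KRT14 and KRT17 were 6.11-fold, 25.2-fold and 5.91-fold lower in DCIS.COM and CDH1 was 1.51-fold lower, whereas EPCAM was 5.03-fold and TP63 1.68-fold higher, all called. None of 5 fibroblast markers had a row in the table, and of 5 immune and 5 endothelial markers only CD14, CD68 and PECAM1 did. CD14 and CD68 together were at 41.4 to 47.1 CPM in MCF10A and 5.63 to 6.55 CPM in DCIS.COM, and PECAM1 was at 1.70 to 2.69 CPM in MCF10A and 10.1 to 13.3 CPM in DCIS.COM. Their part in the line differences was not tested. The 2 DCIS.COM pCDH-empty libraries stood apart from each other: the median absolute difference between the libraries of the pair was 0.19 on the log2 scale over genes at 10 CPM or more, against 0.05 to 0.06 in the other 3 groups. The member differences that rest on this group are therefore also given without each of the 2 libraries.

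PLAU, the gene for urokinase, was the member most strongly reduced in DCIS.COM. Its level was 6.08 and 6.41 log2 CPM in MCF10A pCDH-empty, 6.05 and 6.40 in MCF10A pCDH-HOTAIR, 2.31 and 2.58 in DCIS.COM pCDH-empty, and 3.07 and 3.03 in DCIS.COM pCDH-HOTAIR. All 4 MCF10A libraries were far above all 4 DCIS.COM libraries, and within DCIS.COM both pCDH-HOTAIR libraries were above both pCDH-empty libraries. The share of all genes that separate the lines or the vectors in this way was not counted, for PLAU or for the genes below. In reads, PLAU had 1280 to 2262 in MCF10A and 147 to 295 in DCIS.COM. PLAU was 14.0-fold lower in DCIS.COM than in MCF10A with the empty vector (log2 fold change -3.80, SE 0.16, limma adjusted p = 2.65e-07) and 9.04-fold lower with HOTAIR (log2 fold change -3.18, SE 0.16, adjusted p = 7.32e-07). The antisense gene C10orf55 overlaps PLAU, and it had 17 to 32 reads in MCF10A and 1 to 12 in DCIS.COM. The sources used here do not state whether counting used strand, and overlap of exons was not checked. Reads of C10orf55 and PLAU may therefore have been shared, but even in sum those of C10orf55 are few beside the reads of PLAU.

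PLAT, the gene for the tissue-type activator, was higher in DCIS.COM. It lies on the minus strand at chr8:42032236-42065227 (GRCh37). Its level was 5.40 and 5.38 log2 CPM in MCF10A pCDH-empty, 5.88 and 5.86 in MCF10A pCDH-HOTAIR, 7.25 and 7.03 in DCIS.COM pCDH-empty, and 7.72 and 7.68 in DCIS.COM pCDH-HOTAIR. The 4 groups did not overlap, and in both lines the pCDH-HOTAIR libraries were the higher pair. How many of all genes separate the groups like this was not counted. PLAT was 3.37-fold higher in DCIS.COM with the empty vector (log2 fold change 1.75, SE 0.08, limma adjusted p = 4.06e-07) and 3.54-fold higher with HOTAIR (log2 fold change 1.82, SE 0.08, adjusted p = 3.37e-07).

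PLAUR, which encodes the urokinase receptor, differed far less than its ligand. Its level was 5.26 and 5.26 log2 CPM in MCF10A pCDH-empty, 5.23 and 5.38 in MCF10A pCDH-HOTAIR, 4.81 and 4.68 in DCIS.COM pCDH-empty, and 4.74 and 4.73 in DCIS.COM pCDH-HOTAIR. The lines did not overlap, and the 2 vectors overlapped within each line. The log2 fold change of DCIS.COM over MCF10A was -0.51 (SE 0.08, limma adjusted p = 0.000709) with the empty vector and -0.57 (SE 0.08, adjusted p = 0.000402) with HOTAIR, 1.43-fold and 1.49-fold lower. Both passed the p threshold of 0.05 but not the 1.5-fold threshold, so PLAUR was not called. With HOTAIR it was called once MCF10A pCDH-HOTAIR 1 was left out (log2 fold change -0.65, adjusted p = 0.00167).

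SERPINE2 encodes protease nexin 1, an inhibitor of urokinase, tissue-type activator and thrombin, and it showed the largest difference of the 6 genes. Its level was 5.18 and 5.38 log2 CPM in MCF10A pCDH-empty, 5.47 and 5.62 in MCF10A pCDH-HOTAIR, 9.26 and 9.17 in DCIS.COM pCDH-empty, and 9.14 and 9.15 in DCIS.COM pCDH-HOTAIR. All DCIS.COM libraries were far above all MCF10A libraries, and the vectors were ordered oppositely in the 2 lines, higher with HOTAIR in MCF10A and lower in DCIS.COM. SERPINE2 had 859 to 1130 reads in MCF10A and 15461 to 20060 in DCIS.COM. It was 15.3-fold higher in DCIS.COM with the empty vector (log2 fold change 3.93, SE 0.09, limma adjusted p = 1.73e-08) and 12.1-fold higher with HOTAIR (log2 fold change 3.60, SE 0.09, adjusted p = 2.59e-08).

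ANXA2 and S100A10, whose proteins form 1 receptor complex, differed in opposite directions. ANXA2 was at 11.75 and 11.76 log2 CPM in MCF10A pCDH-empty, 11.67 and 11.82 in MCF10A pCDH-HOTAIR, 12.21 and 11.96 in DCIS.COM pCDH-empty, and 12.06 and 12.06 in DCIS.COM pCDH-HOTAIR. Only 0.0726% of the genes of the table had a mean level as high. S100A10 was at 9.40 and 9.53 log2 CPM in MCF10A pCDH-empty, 9.38 and 9.48 in MCF10A pCDH-HOTAIR, 8.50 and 8.24 in DCIS.COM pCDH-empty, and 8.50 and 8.50 in DCIS.COM pCDH-HOTAIR. For both genes the lines did not overlap, ANXA2 being the higher in DCIS.COM and S100A10 the lower. S100A10 was 2.14-fold lower with the empty vector (log2 fold change -1.10, SE 0.09, limma adjusted p = 1.72e-05) and 1.91-fold lower with HOTAIR (log2 fold change -0.93, SE 0.09, adjusted p = 4.63e-05). ANXA2 differed by a log2 fold change of 0.33 (SE 0.11, adjusted p = 0.0256) with the empty vector and 0.32 (SE 0.11, adjusted p = 0.0301) with HOTAIR, which is under 1.5-fold and was not called. The empty-vector value of ANXA2 was 0.20 without DCIS.COM pCDH-empty 1 and 0.46 without DCIS.COM pCDH-empty 2. Over the libraries left out in turn the limma adjusted p of ANXA2 reached 0.102 with the empty vector and 0.174 with HOTAIR, and it was 0.0987 with the empty vector when only the libraries of that comparison were fitted. Under quantile normalization the ANXA2 value with HOTAIR became 0.66 and was called. ANXA2P2, a near-identical copy of ANXA2, is in the table with 818 to 1952 reads, and reads of the 2 genes may have been exchanged in counting.

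**Figure D1:**
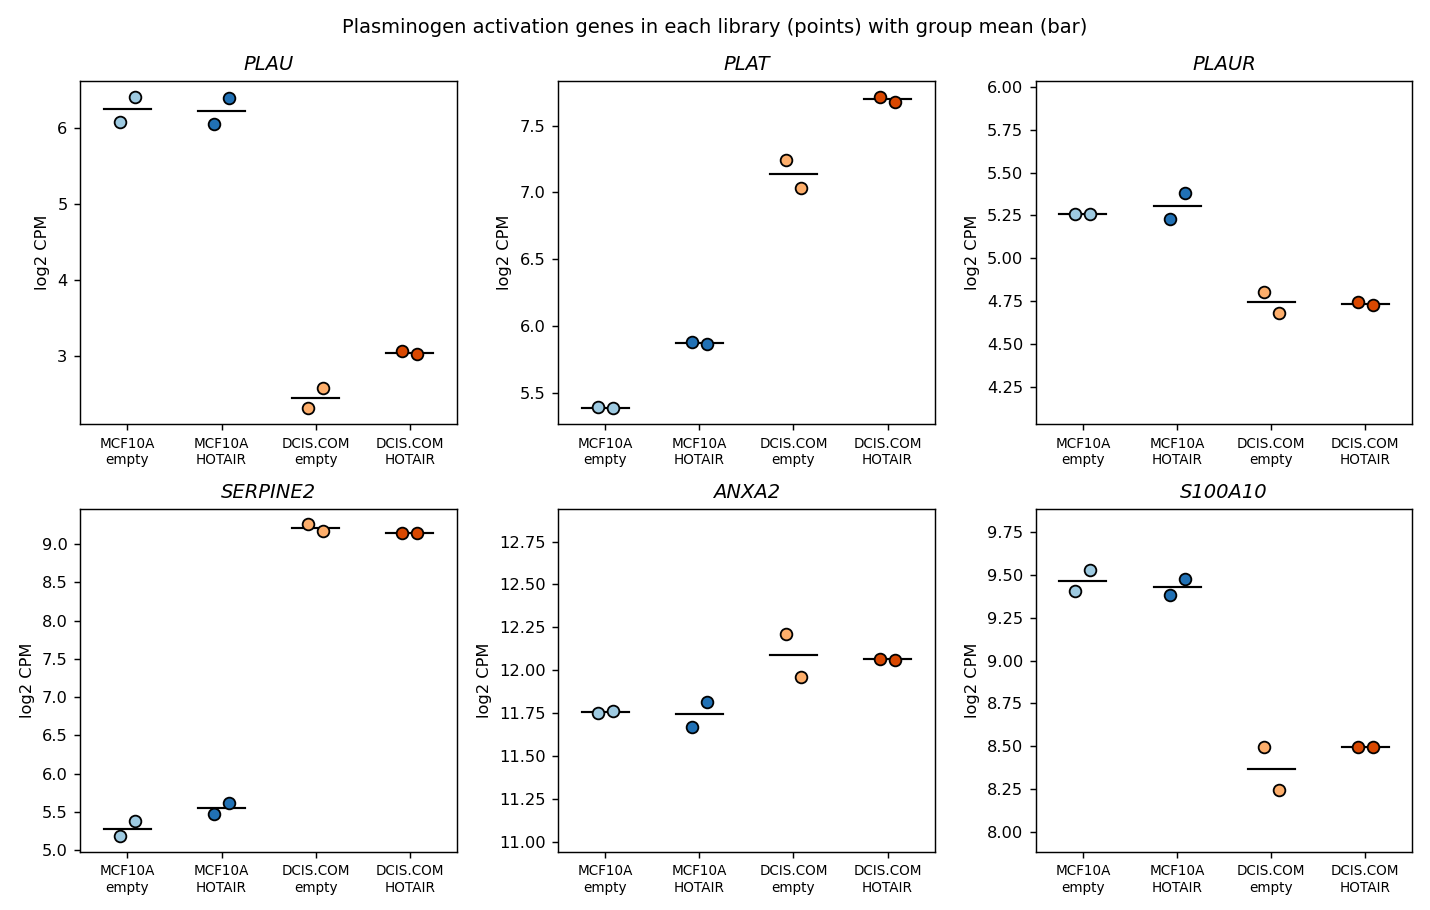
Level of each of the 6 genes in the 8 libraries, in log2 CPM (vertical axes differ between panels and do not start at 0), with points for libraries and bars for the mean of the 2 libraries of a group. PLAU and S100A10 sit lower and PLAT and SERPINE2 higher in DCIS.COM than in MCF10A, and the lines also do not overlap for PLAUR and ANXA2. The share of all genes without overlap between the lines was not counted.

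Of the 6 genes, 2 (PLAT and SERPINE2) were called higher and 2 (PLAU and S100A10) lower in DCIS.COM with either vector. The line difference was wide: with the empty vector 22.5% of all genes tested were called higher and 23.8% lower, and with HOTAIR 22.0% were called higher and 21.7% lower. The count of 4 of 6 therefore stands against a background in which calls were common, and the sizes of the differences are given beside it. Over the 8 libraries PLAU spanned 4.10 and SERPINE2 4.08 on the log2 scale, a range that 6.93% and 7.03% of all genes reached. The range was 2.34 for PLAT and 1.28 for S100A10, reached by 14.0% and 31.2% of genes. It was 0.70 for PLAUR and 0.54 for ANXA2, which 61.2% and 73.2% of genes reached. The median log2 fold change of the 6 genes was -0.09 with the empty vector and -0.13 with HOTAIR, and that of all genes lay within 0.0035 of 0 in both. Without DCIS.COM pCDH-empty 1 and without DCIS.COM pCDH-empty 2, respectively, the empty-vector value was -3.67 and -3.94 for PLAU, 1.65 and 1.86 for PLAT, and 3.89 and 3.98 for SERPINE2. It was -1.22 and -0.97 for S100A10 and -0.58 and -0.45 for PLAUR, and all of these genes kept their call or lack of one. In bulk RNA, fewer cells with a transcript and less transcript per cell cannot be told apart.

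**Figure D2:**
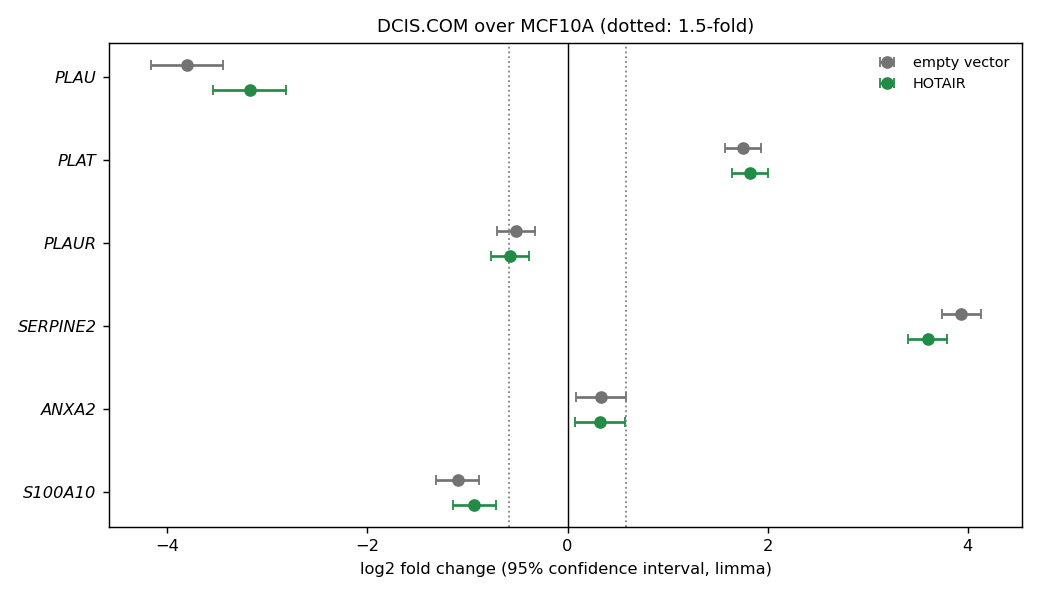
Log2 fold change of DCIS.COM over MCF10A for the 6 genes, with the empty vector (grey) and with HOTAIR (green), with 95% confidence intervals from limma and dotted lines at 1.5-fold. PLAU is lowest at -3.80 and -3.18 and SERPINE2 highest at 3.93 and 3.60.

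Levels of different genes were compared as CPM per kilobase of exon. The exon lengths came from another annotation than the one used for counting, and the order and the folds between genes depend on them. The order in MCF10A pCDH-empty was ANXA2 (mean 1271), S100A10 (973), PLAU (28.4), PLAUR (17.4), PLAT (12.5) and SERPINE2 (12.2), in which only the neighbours PLAT and SERPINE2 overlapped between libraries. In MCF10A pCDH-HOTAIR the order was the same, with PLAUR and PLAT (17.5) overlapping and SERPINE2 at 14.7. In DCIS.COM pCDH-empty it was ANXA2 (1605), S100A10 (457), SERPINE2 (187), PLAT (42.3), PLAUR (12.2) and PLAU (2.01), and no neighbours overlapped. DCIS.COM pCDH-HOTAIR kept that order, with SERPINE2 at 178, PLAT at 62.1, PLAUR at 12.1 and PLAU at 3.05. Per kilobase, PLAU thus stood first of the 4 less abundant genes in MCF10A and last in DCIS.COM, and SERPINE2 moved from last to first of these 4. In mean CPM not divided by length, PLAUR (38.2) was below SERPINE2 (38.9) and PLAT (41.8) in MCF10A pCDH-empty.

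The balance between activator, receptor and inhibitor was measured as the ratio of 2 genes within a library, per exon length. PLAU exceeded PLAT in every MCF10A library, by 1.39-fold to 2.54-fold, and PLAT exceeded PLAU in every DCIS.COM library, by 17.9-fold to 24.9-fold. The mean log2 ratio of PLAU to PLAT was 0.92 ± 0.36 (SD, n = 4) in MCF10A and -4.37 ± 0.20 (SD, n = 4) in DCIS.COM, with an exact permutation p = 0.0286. This is the smallest p that 4 libraries against 4 allow (70 arrangements, two-sided), all 4 ratios tested reached it, and adjustment over the 4 left it at 0.0286. In the ratios of PLAU to PLAT, PLAU to SERPINE2 and S100A10 to ANXA2, the 2 genes each separated the lines, in opposite directions. For PLAU to PLAUR, the lowest PLAU level in MCF10A (6.05 log2 CPM) and the highest in DCIS.COM (3.07) lay further apart than PLAUR ranged over all libraries (0.70). The p-values of all 4 ratios were therefore fixed by the single-gene levels and add nothing to them. The 4 libraries of a line also pool both vectors. PLAU also exceeded the inhibitor SERPINE2 in every MCF10A library, by 1.77-fold to 2.42-fold, whereas SERPINE2 exceeded PLAU in DCIS.COM by 82.6-fold and 106-fold with the empty vector and by 57.4-fold and 59.3-fold with HOTAIR. The mean log2 ratio of PLAU to SERPINE2 moved from 1.07 ± 0.19 (SD, n = 4) in MCF10A to -6.21 ± 0.42 (SD, n = 4) in DCIS.COM, a difference of 155-fold. The ratio of urokinase to its receptor, PLAU to PLAUR, had a mean log2 of 0.66 ± 0.16 (SD, n = 4) in MCF10A and -2.30 ± 0.39 (SD, n = 4) in DCIS.COM, a difference of 7.78-fold. The log2 ratio of S100A10 to ANXA2 was -0.40 ± 0.05 (SD, n = 4) in MCF10A and -1.74 ± 0.09 (SD, n = 4) in DCIS.COM, so that ANXA2 exceeded S100A10 by 1.26-fold to 1.36-fold in MCF10A and by 3.16-fold to 3.52-fold in DCIS.COM.

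**Figure D3:**
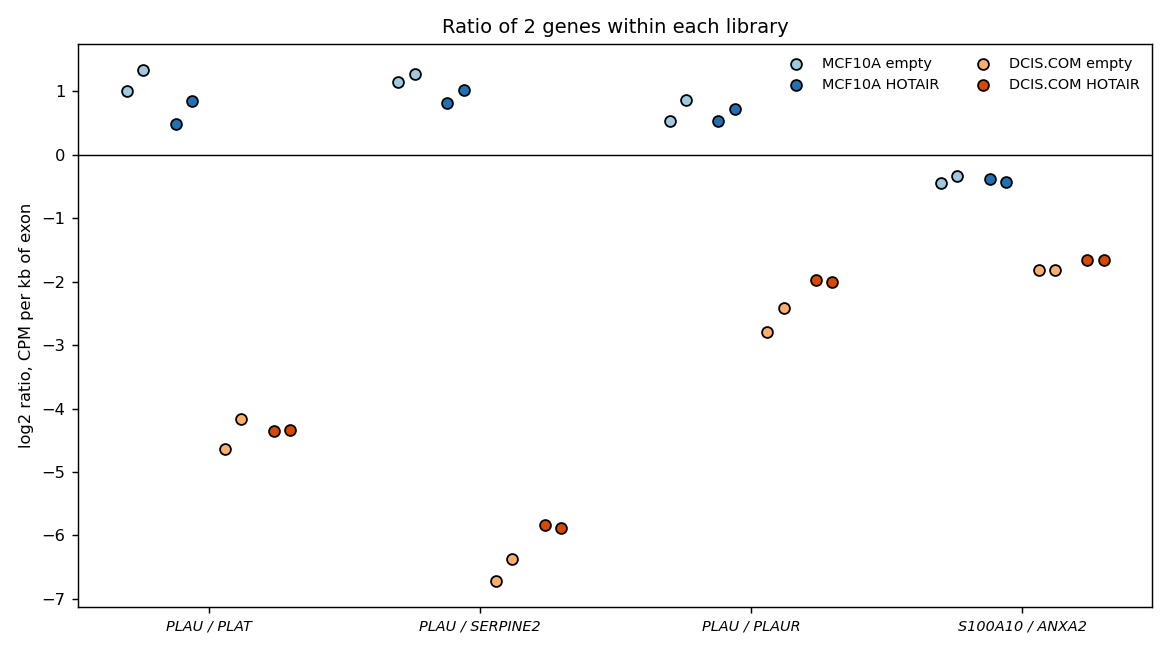
Log2 ratio of 2 genes within each library, per kilobase of exon, with 1 point per library coloured by group and a line at 0, where both genes are equal. The ratios of PLAU to PLAT, SERPINE2 and PLAUR lie above 0 in all MCF10A libraries and below 0 in all DCIS.COM libraries, and the ratio of S100A10 to ANXA2 lies below 0 throughout and lower in DCIS.COM.

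No member was called for HOTAIR against the empty vector in MCF10A or in DCIS.COM, where 0.0218% and 0.0871% of all genes were called, and none had a called difference between the 2 HOTAIR effects (0.0436% of all genes). At an unadjusted limma p under 0.05 there were 2 members in MCF10A (PLAT and SERPINE2), 2 in DCIS.COM (PLAT and PLAU) and 2 in the difference (PLAU and SERPINE2), against 7.28%, 17.5% and 10.5% of all genes, respectively. The comparisons of HOTAIR with the empty vector share their libraries with the comparisons between lines. The paper, which tested with edgeR, lists PLAU among the genes upregulated with HOTAIR in DCIS.COM. In the limma fit used here PLAU was 1.52-fold higher there and was not called. For HOTAIR against the empty vector, this fit called 3 genes of the whole table in MCF10A and 12 in DCIS.COM. The paper reports far more genes for each line. The lack of a call for PLAU in a fit with so few calls therefore does not count against its listing in the paper. The reason for these differences was not tested.

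PLAT libraries with HOTAIR lay above those with the empty vector in both lines. The log2 fold change of PLAT was 0.48 in MCF10A (95% confidence interval 0.30 to 0.66, limma adjusted p = 0.155) and 0.56 in DCIS.COM (0.38 to 0.74, adjusted p = 0.0762), 1.40-fold and 1.47-fold. Both intervals lie above 0, but neither value passed the adjusted threshold or 1.5-fold in the fit of all 8 libraries. That fit pools the spread over the groups, so the adjusted p in MCF10A also depends on the wide DCIS.COM pCDH-empty pair. The MCF10A value itself stayed at 0.48 without either library of that pair, which is under 1.5-fold. The difference between the 2 effects was 0.07 (interval -0.18 to 0.33, adjusted p = 0.764). Without DCIS.COM pCDH-empty 1, the library in which PLAT was the higher of its pair, the DCIS.COM value was 0.66. Without DCIS.COM pCDH-empty 2 it was 0.45.

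PLAU had a log2 fold change of 0.60 with HOTAIR in DCIS.COM (interval 0.24 to 0.96, limma adjusted p = 0.200), and was at -0.02 in MCF10A (interval -0.38 to 0.34, adjusted p = 0.999). The difference between the lines in the HOTAIR effect on PLAU was 0.63 (interval 0.11 to 1.14, adjusted p = 0.431). Without DCIS.COM pCDH-empty 2 the DCIS.COM value was 0.74 and the difference was 0.76. Without DCIS.COM pCDH-empty 1 the DCIS.COM value of PLAU was 0.47.

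SERPINE2 had a log2 fold change of 0.27 with HOTAIR in MCF10A (interval 0.07 to 0.46, limma adjusted p = 0.505) and -0.07 in DCIS.COM (interval -0.27 to 0.13, adjusted p = 0.654). The difference was -0.34 (interval -0.61 to -0.06, limma adjusted p = 0.435). It was -0.38 without DCIS.COM pCDH-empty 2 and -0.29 without DCIS.COM pCDH-empty 1. The DCIS.COM value of SERPINE2 was -0.027 and -0.11 without libraries 1 and 2 of that group. Of the receptor genes, PLAUR was at 0.05 in MCF10A (interval -0.14 to 0.24) and -0.01 in DCIS.COM (interval -0.20 to 0.18), which leaves out a change of 1.5-fold in either direction. ANXA2 was at -0.01 (interval -0.26 to 0.24) and -0.02 (interval -0.27 to 0.23), and S100A10 at -0.03 (interval -0.25 to 0.18) and 0.13 (interval -0.09 to 0.34). Without DCIS.COM pCDH-empty 1 and 2, respectively, the DCIS.COM value was 0.052 and -0.070 for PLAUR, 0.10 and -0.15 for ANXA2, and 0.25 and 0.0024 for S100A10, none called.

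**Figure D4:**
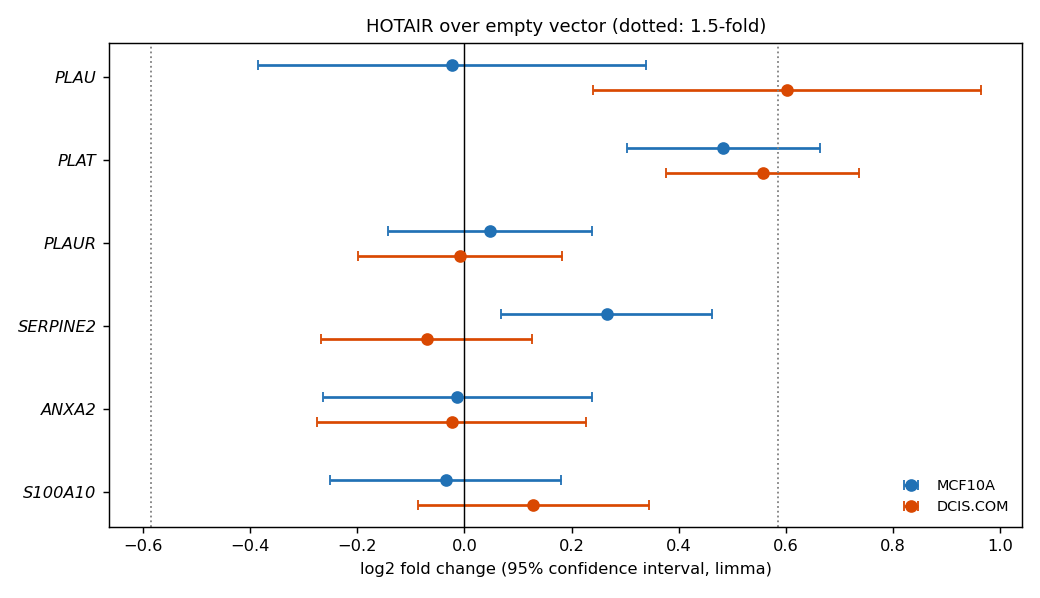
Log2 fold change of HOTAIR over the empty vector for the 6 genes in MCF10A (blue) and DCIS.COM (orange), with 95% confidence intervals from limma and dotted lines at 1.5-fold. The intervals lie above 0 for PLAT in both lines, PLAU in DCIS.COM and SERPINE2 in MCF10A, and no value was called.

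Around the 6 genes, a list of 54 other genes of the pathway was examined, of which 33 were in the table. The other 21, among them PLG (plasminogen itself), VTN (the PLAUR ligand vitronectin), HGF, MMP3, MMP9 and A2M, had no row in the table used here and were not analysed. With the empty vector 10 of the 33 were called higher in DCIS.COM, 14 lower and 9 were not called, and with HOTAIR the counts were 12, 15 and 6. Over all genes 22.5% were called higher and 23.8% lower with the empty vector, and 22.0% and 21.7% with HOTAIR. Their median log2 fold change was 0.15 with the empty vector and -0.07 with HOTAIR.

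Of the 5 other inhibitors measured, 2 were called higher and 2 lower in DCIS.COM with the empty vector, against 22.5% and 23.8% of all genes. SERPINB2, which encodes a serpin that inhibits urokinase, had 8 reads in the DCIS.COM pCDH-empty libraries together and 532 in those of MCF10A, a ratio of 65.4-fold (95% interval 33.0 to 152, for counting error only). SERPINB6 was also lower (log2 fold change -1.14), while SERPINI1, the gene for neuroserpin, an inhibitor of PLAT, was higher (1.93 with the empty vector and 2.66 with HOTAIR). SERPINA5, the protein C inhibitor gene, was called only with HOTAIR (0.86, against 0.36 with the empty vector), and the difference between the 2 values had a limma adjusted p of 0.330.

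All 10 surface partners of PLAUR that were measured were called with the empty vector, 3 higher and 7 lower in DCIS.COM, where 22.5% and 23.8% of all genes were called in these directions. ITGA5 and ITGB1, which together form the fibronectin receptor, were at -3.88 and -1.73 on the log2 fold change scale (limma adjusted p = 3.12e-08 and 7.03e-07). ITGB3, a subunit of the vitronectin receptor, was at 3.81 and ITGB5 at 0.91, while EGFR was at -1.46, ITGB2 at -2.60 and CAV1, which encodes caveolin 1, at -1.23. FPR1, a chemotactic receptor that interacts with PLAUR, had 5 reads in the 2 DCIS.COM pCDH-empty libraries and 2266 in those of MCF10A, a ratio of 446-fold (95% interval 191 to 1375, for counting error only). ITGA3 was called with the empty vector (0.65) but not with HOTAIR (0.36), and without DCIS.COM pCDH-empty 1 it was at 0.51 and not called. The remaining partner, ITGAV, was called lower with both vectors.

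Of the 7 clearance and uptake receptors measured, 1 was called higher and 1 lower with the empty vector, against 22.5% and 23.8% of all genes. LRP1, which takes up complexes of activator and inhibitor, was at 4.44 and 5.38 log2 CPM in MCF10A pCDH-empty and 3.20 and 2.91 in DCIS.COM pCDH-empty, a log2 fold change of -1.85. SORL1, a sorting receptor that also binds PLAUR, was at 3.40 with either vector, 10.6-fold higher with the empty vector. MRC2, a collagen receptor that associates with PLAUR, was at -0.54 with the empty vector, where it was not called, and -0.86 with HOTAIR, where it was. Of the 4 plasminogen receptors measured, 2 were called higher with the empty vector, ENO1 (1.40) and KRT8 (2.35), and all 4 with HOTAIR. Over all genes 22.5% and 22.0% were called higher. The 2 called only with HOTAIR were near the fold threshold there, at 1.53-fold and 1.56-fold. The difference between their values with the 2 vectors had a limma adjusted p of 0.498 and 0.523. The span of KRT8 overlaps that of KRT18, and the span of ENO1 overlaps that of an antisense gene in the table. Overlap of their exons was not checked, so reads may have been shared where counting did not use strand.

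Among the other proteases that act on urokinase or its precursor, F12 (coagulation factor XII, log2 fold change 2.19) and ST14 (matriptase, 0.69) were higher in DCIS.COM with the empty vector and the cathepsins CTSB (-1.59) and CTSL (-1.61) were lower. Of 3 measured substrates of urokinase or plasmin, TGFB1 (-2.40) and LTBP1 (-2.88), the growth factor and a protein that holds it latent in the matrix, were lower, and MST1 was not called. By gene span, F12 overlaps GRK6, MST1 overlaps APEH, LRP1 overlaps STAT6, ITGB2 overlaps an antisense gene and TGFB1 overlaps 3 genes of the table. How any reads shared by these genes were assigned is not given in the sources used here.

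**Figure D5:**
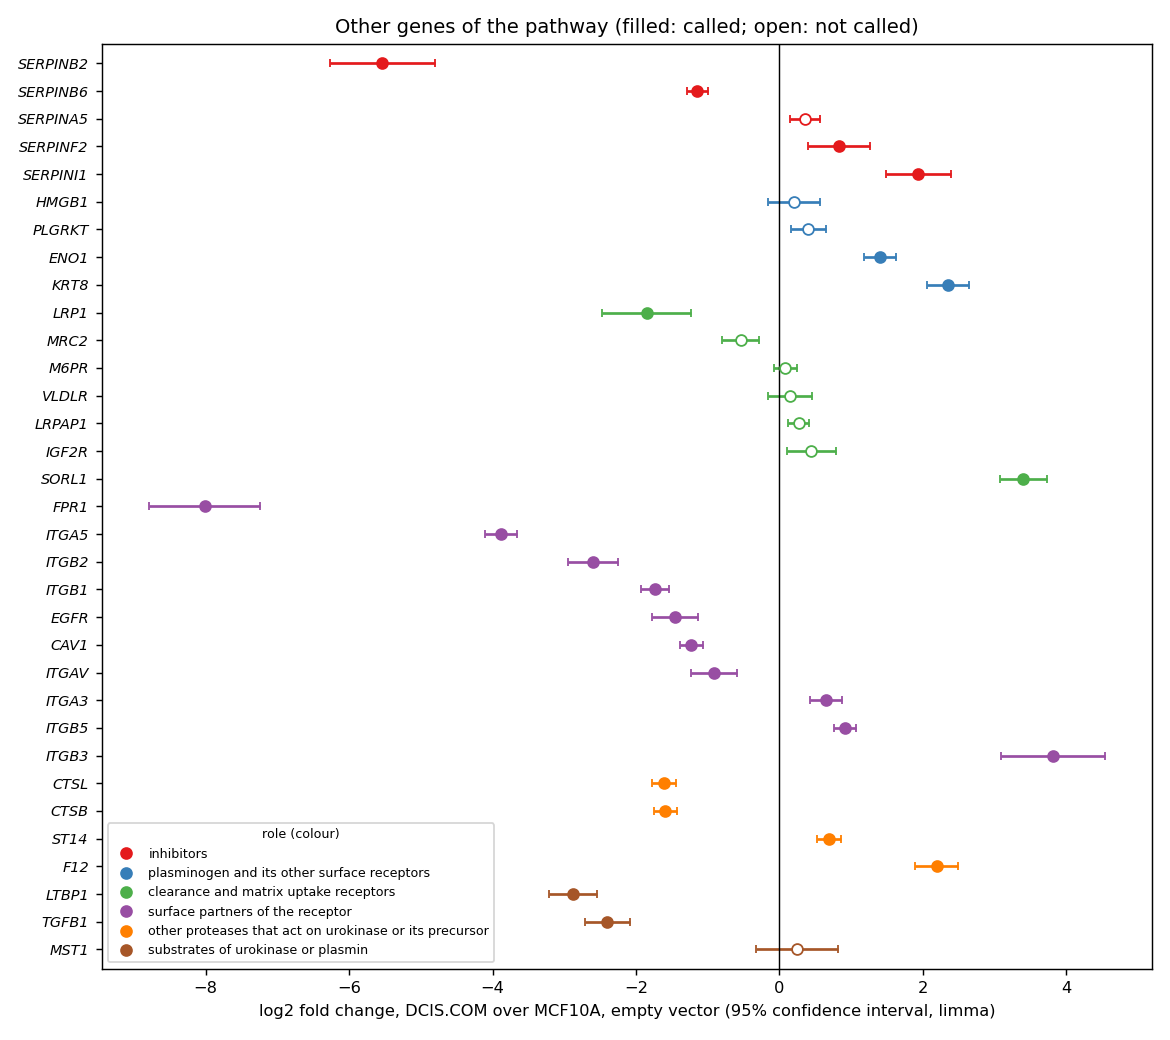
Log2 fold change of DCIS.COM over MCF10A with the empty vector for the 33 other pathway genes, with 95% confidence intervals from limma, coloured by role and filled where called. FPR1 is lowest at -8.02 and ITGB3 highest at 3.81, and 7 of the 10 surface partners lie below 0.

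With HOTAIR against the empty vector, none of the 33 pathway genes was called in either line. At an unadjusted limma p under 0.05 there were 10 of 33 in MCF10A, 5 in DCIS.COM and 2 in the difference between the lines, against 7.28%, 17.5% and 10.5% of all genes. The median log2 fold change of the 33 genes was 0.10 in MCF10A and 0.05 in DCIS.COM, and that of all genes was -0.01 and 0.01. MRC2 had a log2 fold change of 0.66 in MCF10A (limma adjusted p = 0.166) and ITGA5 one of 0.47 (adjusted p = 0.244).

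The genes whose profile over the 8 libraries lay nearest to that of a member were found among genes with a mean of at least 10 CPM, by the root mean square distance of log2 CPM centred on each gene's mean. For PLAU these were CD24 (distance 0.15), SLC16A4 (0.15) and KLF9 (0.16), and for SERPINE2 they were SMOC1 (0.09), CYFIP2 (0.13) and KCNS3 (0.15). PLAT was nearest to CRABP2 (0.16), PI3 (0.18) and ALDOC (0.19), and PLAUR to ATF2 (0.03), MARK3 (0.04) and FRRS1 (0.04). ANXA2 was nearest to COX8A (0.03), ACP2 (0.04) and NDUFA10 (0.04), and S100A10 to C11orf49 (0.03), IDH2 (0.06) and FHL2 (0.06). No member was among the nearest 3 of another member. Distances are descriptions over 8 libraries that share a line and vector design, in which the line difference dominates.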

How the data were processed

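The paper's methods name ScriptSeq paired-end libraries, alignment to hg19 with Rsubread and counting on UCSC known genes with featureCounts. The authors deposited log2 CPM values, normalized with edgeR, for 13771 genes with more than 0.5 CPM in at least 2 libraries. No per-sample column was left unused. From the equal steps of the linear values above a shared prior of 0.0717 CPM, whole reads were recovered for 100% of values (within 0.05 read).

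Groups came from the labels. The deposited values were fitted with limma 3.58.1 in R 4.3.3 (4 group means, 8 libraries, mean-variance trend) on the whole table. Calls needed at least 1.5-fold and an adjusted p-value (Benjamini-Hochberg) under 0.05, the interaction without a fold threshold. Fold changes are on the scale of the deposited prior, which understates those of low genes. Within-library ratios were compared by an exact two-sided permutation test written in Python 3.11.15 with numpy 2.4.6. The intervals for counting error came from scipy 1.17.1. Exon lengths came from GENCODE release 44 on GRCh37. On simulated libraries (200 genes changed by 1.5 on the log2 scale among 13771, 10 simulations) 99.2% of changed genes were called in MCF10A and 99.3% in DCIS.COM. Of the simulated calls 10.3% and 5.56% were false, so those in MCF10A exceeded the nominal share. Smaller changes were not simulated. Every simulated group had the same spread, unlike the measured libraries, in which the DCIS.COM pCDH-empty pair was the widest. These shares therefore do not describe the calls on the measured libraries. A first criterion on false calls failed there and was replaced by interval coverage (93.4% and 94.2%).

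The members and gene lists were chosen with earlier results of these data known. Named genes were the members, HOTAIR, the called pathway genes (up to 25 by smallest adjusted p) and 3 nearest profiles per member. VLDLR, IGF2R, HMGB1, SERPINF2 and MST1 fall outside this rule and were named after their values were seen. Alternatives were 2 pseudocounts, 2 normalizations, a filter on low values, no trend, a replicate block, fewer libraries in the fit, limma-voom on recovered reads, and each library left out. Replicate pairs exceeded counting noise in every group. No protein sequences were used here, and 1 gene of the pathway list is not reported here.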

Additional observations from a re-analysis of the deposited data

Results flagged for a closer look

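The rise of HOTAIR itself with its vector was tested for a difference between the lines. The log2 fold change of HOTAIR was 7.28 in MCF10A and 5.41 in DCIS.COM, and the difference of -1.87 (SE 0.18, limma adjusted p = 0.0208) was called. The call was lost without the mean-variance trend (adjusted p = 0.132), with the replicate block (0.0592), with limma-voom on recovered reads (0.0507) and in 6 of the 8 fits with a library left out (the value ranging from -2.07 to -1.68 over all 8), and it was kept in the 2 that left out a DCIS.COM pCDH-empty library. The pCDH-HOTAIR groups had 4614 to 4827 reads in MCF10A and 6385 to 7166 in DCIS.COM, and the pCDH-empty groups 40 to 45 and 119 to 140. The level reached with the vector was a log2 fold change of -0.29 in DCIS.COM over MCF10A (adjusted p = 0.0694), and that with the empty vector one of 1.58 (adjusted p = 1.08e-05). None of the 6 plasminogen activation genes had a called difference of this kind.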

How the results depend on the processing

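The calls of PLAU, PLAT, SERPINE2 and S100A10 between the lines held under every alternative run, with either vector, and no member was called for HOTAIR under the 9 alternatives that keep all groups whole. Some of these could not have called a member. With only the libraries of the contrast, no gene was called in DCIS.COM, where HOTAIR itself had limma adjusted p = 0.0537. In the difference, the fits without the trend and with the replicate block also called no gene. Leaving out 1 library at a time, the members called for HOTAIR ranged from 0 to 1 in DCIS.COM (PLAT or PLAU) and from 0 to 2 in the difference between lines (PLAU and SERPINE2). The pathway genes called ranged from 0 to 2 in MCF10A (VLDLR and MRC2), from 0 to 1 in DCIS.COM (HMGB1) and from 0 to 9 in the difference. In these fits the lone library of a group is assumed to vary like the other groups, and every such gain came from leaving out a DCIS.COM pCDH-empty library. The calls over the whole table also rose in those fits, as given below, so the gains are not particular to these genes. Between lines, SERPINF2 (without MCF10A pCDH-empty 2, 0.56) and HMGB1 with HOTAIR (without MCF10A pCDH-HOTAIR 1, 0.58) were no longer called, nor was ITGA3 (without DCIS.COM pCDH-empty 1, 0.51), whereas with the empty vector IGF2R (0.70 without MCF10A pCDH-empty 2, 0.44 before) and MRC2 (-0.68 without MCF10A pCDH-empty 1) became called.

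Over the whole table, the genes called for HOTAIR numbered 3 in MCF10A (1 to 6 by setting, 1 to 51 with a library left out), 12 in DCIS.COM (0 to 20, and 1 to 1403) and 6 in the difference (0 to 10, and 0 to 4414). The counts of 51 came without either DCIS.COM pCDH-empty library, and 1403 and 4414 without DCIS.COM pCDH-empty 2. The cause was not tested.

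Small HOTAIR values changed sign. With a library left out, PLAU in MCF10A ranged from -0.20 to 0.15, PLAUR from -0.029 to 0.12, ANXA2 from -0.087 to 0.059 and S100A10 from -0.096 to 0.027; in DCIS.COM, PLAUR ranged from -0.070 to 0.052 and ANXA2 from -0.15 to 0.10; in the difference, PLAT ranged from -0.032 to 0.18, PLAUR from -0.13 to 0.020 and ANXA2 from -0.14 to 0.12. Under quantile normalization SERPINE2 in DCIS.COM was at 0.0079 and the ANXA2 difference at 0.13.

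In the pCDH-empty libraries alone, the line differences of the log2 ratios were -3.30 for PLAU to PLAUR, -5.57 for PLAU to PLAT, -7.76 for PLAU to SERPINE2 and -1.43 for S100A10 to ANXA2. With a library left out, PLAU to SERPINE2 ranged from -7.39 to -7.10.

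Replicate numbers were shared in the labels, but deviations of same-numbered libraries correlated by only -0.02 to 0.07, so the numbers were not taken to pair libraries. With the replicate number as a block, no member call changed, and the genes called over the table numbered 20 in DCIS.COM and 0 in the difference.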
